A study of Homo sapiens and Mus musculus with 15 samples.

Results

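Whether raised YAP returns RPE cells on a soft substrate to the expression state of cells on plastic was examined by bulk RNA-seq of ARPE-19, an established human retinal pigment epithelium (RPE) cell line. The comparison set 3 libraries of cells that overexpressed YAP-HA, a tagged YAP, on a gel of 1.5 kPa against 3 libraries of control cells on plastic. It covered the 14131 genes, of 61071 rows in the table, with a TPM, a transcript level scaled by length and library, of at least 1 in at least 3 of these 6 libraries. Another group, 3 libraries of control cells on the same gel, gave the change with substrate alone, and the 9 libraries were part of a series of 15. Cells of all 3 groups were harvested after 5 days and came from 1 cell line, the controls carrying control vectors. YAP-HA on plastic was not analysed here, so against plastic the substrate and the construct changed together and cannot be told apart. The labels do not say that the libraries of a group came from separate cultures, so the p-values measure only the spread between these libraries. The filter left out 205 genes that reached 1 TPM in all 3 control gel libraries.

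YAP is a transcriptional co-activator that carries no DNA-binding domain of its own and acts mainly through the TEAD transcription factors. The LATS kinases of the Hippo pathway phosphorylate YAP and hold it in the cytoplasm, and a stiff substrate, spread cell shape and actin tension favour its entry into the nucleus. In the RPE, a pigmented epithelium that rests on Bruch's membrane and serves the photoreceptors, YAP takes part in cell fate and in the wound-like shift of RPE cells toward a contractile, matrix-producing state.

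The libraries were close to each other within a group, with Pearson's r of log2(TPM + 1) over the genes tested between 0.9865 and 0.9917, against 0.9673 to 0.9717 between plastic and YAP-HA gel. Between 13708 and 14296 genes reached 1 TPM in a library. Mitochondrially encoded transcripts made up 18.2 to 20.3% of the TPM on plastic and 18.6 to 20.2% with YAP-HA on gel, and 12.7 to 15.1% in the control gel libraries. As TPM values keep no depth, the number of reads behind each value is unknown. The epithelial genes KRT8, KRT18 and EZR averaged 695, 624 and 457 TPM on plastic, whereas RPE65, the isomerase that defines the mature visual cycle, was listed at 0 in all 9 and TYR, the first enzyme of melanin synthesis, reached at most 0.18 TPM. The cells therefore carried these epithelial markers, with RPE65 and TYR absent or near the floor. Some other RPE markers were present: RLBP1 averaged 4.25 TPM on plastic, and MITF, OTX2 and SERPINF1 passed the filter. Of 23 listed RPE identity and visual cycle genes only 15 passed it, and 2 were listed at 0 in all libraries. Of 14 listed melanosome genes 7 passed. Of the marker lists of other cell types, no member of 8 endothelial and 8 photoreceptor or neuronal genes passed the filter, and their summed level stayed at most 0.86 and 0.42 TPM in any library. RGS5 was the sole tested member of 6 pericyte and smooth muscle genes, whose sum lay between 2.49 and 6.48 TPM. Of 10 macrophage and leukocyte genes, 5 were listed at 0 in all libraries, and the 2 tested, CD68 and CSF1R, were lower with YAP-HA than on plastic. The sum of that list ran from 166 to 196 TPM on plastic, from 135 to 202 on control gel and from 76.4 to 95.6 with YAP-HA, nearly all of it CD68, a lysosomal membrane protein. In bulk RNA, fewer cells of a kind and less RNA per cell cannot be told apart.

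Promoter sequences are shown for genes described in the results, as RefSeq gives them for GRCh38.p14, from 250 bases before to 50 bases after the start, on the strand of the gene and, where a gene has several, the first by position that holds the motif. The first 4 are YAP/TAZ-TEAD target genes that were higher with YAP-HA on gel than on plastic and hold the TEAD core GGAATG on either strand, printed in capitals: CPA4 at chr7:130292911-130293210 on the plus strand, AMOTL2 at chr3:134374398-134374697 on the minus strand, AXL at chr19:41226505-41226804 on the plus strand and AJUBA at chr14:22976793-22977092 on the minus strand. The core begins 134, 69, 212 and 59 bases before the start in these genes.
CPA4: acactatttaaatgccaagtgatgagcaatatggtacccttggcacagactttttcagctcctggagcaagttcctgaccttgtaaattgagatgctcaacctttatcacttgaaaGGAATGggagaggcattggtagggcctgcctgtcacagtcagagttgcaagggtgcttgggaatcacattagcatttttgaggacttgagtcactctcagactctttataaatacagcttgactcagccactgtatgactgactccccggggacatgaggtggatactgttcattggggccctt
AMOTL2: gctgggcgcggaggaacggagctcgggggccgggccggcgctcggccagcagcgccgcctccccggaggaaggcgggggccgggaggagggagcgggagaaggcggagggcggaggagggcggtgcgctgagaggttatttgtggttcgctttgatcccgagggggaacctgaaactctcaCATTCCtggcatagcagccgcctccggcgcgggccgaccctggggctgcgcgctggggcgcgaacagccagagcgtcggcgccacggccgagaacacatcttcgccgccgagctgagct
AXL: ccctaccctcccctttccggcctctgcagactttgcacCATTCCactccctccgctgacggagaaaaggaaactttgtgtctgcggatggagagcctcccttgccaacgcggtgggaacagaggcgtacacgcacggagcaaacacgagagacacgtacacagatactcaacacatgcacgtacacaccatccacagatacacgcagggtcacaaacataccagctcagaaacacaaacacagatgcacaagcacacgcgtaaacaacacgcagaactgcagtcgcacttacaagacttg
AJUBA: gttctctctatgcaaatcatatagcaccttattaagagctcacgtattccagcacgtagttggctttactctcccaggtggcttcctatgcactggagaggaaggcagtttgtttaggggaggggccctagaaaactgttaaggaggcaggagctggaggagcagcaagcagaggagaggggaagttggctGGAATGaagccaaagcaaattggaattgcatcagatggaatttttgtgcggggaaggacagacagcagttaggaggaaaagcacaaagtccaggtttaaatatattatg

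The next 4 are the interferon-stimulated genes that fell most, with matches to the core of the interferon-stimulated response element (ISRE), GAAA and GAAA spaced by any 2 bases on either strand, in capitals: IFITM1 at chr11:313790-314089 on the plus strand, IFI27 at chr14:94110486-94110785 on the plus strand, BST2 at chr19:17405581-17405880 on the minus strand and IFI6 at chr1:27672143-27672442 on the minus strand. IFITM1, IFI27 and BST2 hold 2 matches each, which overlap one another in BST2, and IFI6 holds 3.
IFITM1: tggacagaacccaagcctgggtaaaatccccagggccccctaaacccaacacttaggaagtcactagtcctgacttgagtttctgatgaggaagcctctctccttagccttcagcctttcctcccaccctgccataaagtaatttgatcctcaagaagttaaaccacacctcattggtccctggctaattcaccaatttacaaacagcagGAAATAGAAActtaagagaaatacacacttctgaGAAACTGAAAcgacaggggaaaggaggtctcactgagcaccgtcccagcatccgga
IFI27: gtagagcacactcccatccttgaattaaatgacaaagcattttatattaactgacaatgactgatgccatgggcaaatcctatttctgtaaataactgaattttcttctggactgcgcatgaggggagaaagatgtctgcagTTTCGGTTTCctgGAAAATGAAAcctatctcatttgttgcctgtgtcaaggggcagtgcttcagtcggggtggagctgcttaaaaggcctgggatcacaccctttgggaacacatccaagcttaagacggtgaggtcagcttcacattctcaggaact
BST2: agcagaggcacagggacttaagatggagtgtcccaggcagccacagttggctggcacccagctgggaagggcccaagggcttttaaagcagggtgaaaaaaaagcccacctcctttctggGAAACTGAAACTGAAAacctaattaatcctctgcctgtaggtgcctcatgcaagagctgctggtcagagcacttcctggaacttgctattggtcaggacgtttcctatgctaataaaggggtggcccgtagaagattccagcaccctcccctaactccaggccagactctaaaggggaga
IFI6: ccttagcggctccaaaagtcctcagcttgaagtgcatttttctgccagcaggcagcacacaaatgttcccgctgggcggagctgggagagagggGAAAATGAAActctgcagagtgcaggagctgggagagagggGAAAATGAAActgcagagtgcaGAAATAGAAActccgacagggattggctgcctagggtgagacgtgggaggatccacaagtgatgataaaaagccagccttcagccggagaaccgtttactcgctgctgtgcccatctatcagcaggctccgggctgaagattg

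A RefSeq promoter was found for 10128 of the 14131 genes tested, and 14.9% of these held GGAATG. The core was in 11 of the 20 YAP/TAZ-TEAD target genes with a promoter (55.0%), 9 of 20 contractile actin genes (45.0%) and 6 of 13 fibrillar matrix genes (46.2%), but in none of 16 basement membrane genes and in 3 of 31 cell cycle genes (9.68%). The 11 target genes with the core went different ways against plastic: besides the 4 shown, CCN2, TGFB2 and ANKRD1 were lower, at log2 differences of -1.37, -0.78 and -0.58, and LATS2, FOXF2, PTPN14 and NUAK2 did not pass the test. Among all genes it was in 12.5% of those higher and 16.5% of those lower with YAP-HA on gel than on plastic. The ISRE core, a search added after the expression values were seen, was in 3.84% of all promoters and in 25 of 34 interferon-stimulated genes (73.5%). A match describes the letters of these windows and does not show a bound site, and neither motif contains the other.

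Over all genes, YAP-HA cells on gel and control cells on plastic differed at 5011 genes (35.5% of those tested), of which 2090 were higher with YAP-HA (14.8%) and 2921 lower (20.7%), by limma at a Benjamini-Hochberg adjusted p under 0.05. Most of these differences were small: 459 genes (3.25%) also differed by at least 1 on the log2 scale, and of these 49 were higher and 410 lower. The control gel differed from plastic at more genes, 7317 (51.8%), with 3196 higher (22.6%) and 4121 lower (29.2%). YAP-HA and control cells on the same gel differed at 6916 genes (48.9%), 3604 higher (25.5%) and 3312 lower (23.4%). The first and second contrasts share the plastic libraries, the second and last those on control gel, and the first and last those with YAP-HA. The counts are therefore not independent of one another. Differences are in log2(TPM + 1), which understates the change of genes of low level, and their median over all genes was -0.04 for YAP-HA on gel and -0.06 for control gel, both against plastic. The counts of each gene group below are read against the 14.8% of all genes that were higher and the 20.7% that were lower.

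Each of the 7317 genes that changed between plastic and control gel was then placed by its level with YAP-HA. A gene was brought back where it differed from control gel toward plastic and passed no test against plastic. Its 95% confidence interval against plastic also had to lie inside 1.5-fold either way in TPM + 1. In TPM this limit is looser for genes of low level. Partly back genes moved toward plastic but still differed from it, and overshot genes passed the plastic level to the other side. Genes left different differed from plastic on the side of the control gel and passed no test against control gel. No interval was required there, so a smaller move with YAP-HA is not excluded for them. Genes further away moved beyond the control gel. By this rule 2713 genes (37.1%) were brought back, 432 (5.9%) partly back and 817 (11.2%) overshot, while 1566 (21.4%) were left different, 307 (4.2%) lay further away and 1482 (20.3%) could not be placed. The number partly back rested on single libraries, running from 196 without the first YAP-HA library and 215 without the second to 901 without the first control gel library, and the number further away was 164 without control gel replicate 3 and 199 without control gel replicate 2. A further 1889 genes (13.4% of those tested) differed from plastic with YAP-HA and passed no test on control gel, 778 of them higher and 1111 lower. Overshooting was more frequent among genes that control gel had raised (531 of 3196, 16.6%) than among those it had lowered (286 of 4121, 6.94%), a difference that was not tested. Of the 186 genes raised at least 2-fold in TPM + 1 on control gel, 85 overshot, 30 were brought back and 14 partly back. Another 17 of them were left different, 1 lay further away and 39 could not be placed. Of the 539 lowered at least 2-fold in TPM + 1, 140 were brought back, 132 partly back and 14 overshot. Another 78 of them were left different, 11 lay further away and 164 could not be placed.

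YAP1 itself checked the labels. TPM values with an error are means ± SD of 3 libraries, and log2 differences are given ± SE. YAP1 (chromosome 11, 102110447 to 102233424) stood at 115, 126 and 119 TPM in the plastic libraries, at 77.3, 55.9 and 64.8 on control gel and at 2469, 2209 and 2424 with YAP-HA on gel. Every YAP-HA library was thus far above every control library, at 4.29 ± 0.10 (SE) on the log2 scale against plastic (limma, adjusted p = 2.38e-09). Reads of the construct and of the cells' own YAP1 are counted together in this value. WWTR1, which encodes TAZ, the paralog of YAP, went from 46.2 ± 1.05 TPM on plastic to 30.0 ± 5.76 on control gel and 28.4 ± 4.16 with YAP-HA, so it was left different from plastic, at a log2 difference of -0.69 (adjusted p = 0.00236).

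Among Hippo pathway genes the most frequent class was brought back, as it was over all genes. It held 12 of the 22 Hippo genes lower on control gel, and 39.4% of all genes lower there. Of 27 tested of 28 listed, 4 were higher with YAP-HA on gel than on plastic, 9 lower and 14 passed no test, and the median log2 difference was -0.15 against -0.57 for control gel. TEAD1, a DNA-binding partner of YAP, stood at 90.8, 123 and 113 TPM on plastic, 50.4, 31.7 and 38.4 on control gel and 95.5, 96.4 and 125 with YAP-HA. The YAP-HA values overlapped those on plastic, the highest of them just above the plastic range, and all lay above control gel, with a log2 difference from plastic of -0.05 (95% confidence interval -0.42 to 0.33). In all 12 genes of the list were brought back, among them the angiomotins AMOT and AMOTL1, which bind YAP at junctions, and the kinase TAOK1. VGLL3, a TEAD cofactor, fell on control gel from 53.4 ± 10.2 to 7.27 ± 2.13 TPM and was partly back at 26.6 ± 4.58 with YAP-HA. NF2, the upstream activator of LATS known as merlin, was also partly back, at a log2 difference from plastic of -0.42 against -1.17 on control gel. TEAD4, WWC1, WTIP and STK3 were higher than on plastic, at log2 differences of 0.29 to 0.54, STK3 losing its call without YAP-HA replicate 1 or plastic replicates 1 or 3, and VGLL4, a repressor of TEAD, was lower at -0.86 (adjusted p = 5.02e-05).

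The YAP/TAZ-TEAD target genes did not share a direction against plastic. All 27 listed genes were tested, 8 were higher with YAP-HA on gel than on plastic and 10 lower, and the median log2 difference was -0.10, against -0.73 for control gel. The list placed 5 genes as brought back, 7 as partly back and 7 as overshot. The overshot genes went both ways: some, such as ANKRD1, lay below plastic with YAP-HA after a rise on control gel. CCN2 (chromosome 6, 131948176 to 131951372), a secreted matricellular protein and a widely used YAP readout, had 456, 476 and 471 TPM on plastic, 147, 156 and 151 on control gel and 173, 197 and 171 with YAP-HA. The groups on gel lay close together and far below plastic, and CCN2 was partly back, at log2 differences of -1.37 ± 0.06 from plastic (adjusted p = 1.61e-07) and 0.25 from control gel (adjusted p = 0.0079). Its relative CCN1, also secreted, had 1166, 1193 and 1138 TPM on plastic, 842, 833 and 816 on control gel and 941, 993 and 953 with YAP-HA, which placed all YAP-HA libraries between the other groups (log2 difference from plastic -0.28, adjusted p = 0.0013). ANKRD1, a nuclear ankyrin repeat protein, was slightly higher on control gel than on plastic (adjusted p = 0.0333): it stood at 140.2, 168 and 146 TPM on plastic, 168, 174 and 183 on control gel and 98.1, 98.7 and 106 with YAP-HA. All YAP-HA values of ANKRD1 were below all values of the other groups, at a log2 difference of -0.58 ± 0.07 from plastic (adjusted p = 0.000215).

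CPA4, a secreted carboxypeptidase, overshot the plastic level. Its TPM was 7.65, 8.3 and 9.7 on plastic, 5.95, 4.51 and 4.81 on control gel and 15.5, 16.2 and 18.7 with YAP-HA, with no overlap among the 3 groups and a log2 difference from plastic of 0.90 ± 0.12 (adjusted p = 0.000314). F3, the tissue factor that starts coagulation, overshot from 313 TPM on control gel to 675 ± 6.91 against 406 ± 10.7 on plastic, and AMOTL2, AXL and AJUBA overshot at log2 differences of 0.47, 0.31 and 0.25. The call of AJUBA was lost with the replicate block and without any of YAP-HA replicates 2 and 3 and plastic replicate 3. The promoters of these last 3 genes and of CPA4 are among those printed above. Other targets were brought back, among them the kinase LATS2, a feedback inhibitor of YAP, which went from 18.3 ± 0.571 TPM on plastic to 8.87 ± 1.43 on control gel and 17.3 ± 1.31 with YAP-HA. The transmembrane protein CRIM1 and the Rac activator DOCK5 had log2 differences from plastic of -0.11 and -0.10 with YAP-HA against -1.67 and -1.08 on control gel. TGFB2, a TGF-beta ligand, and ASAP1 were partly back. The ASAP1 call was lost without YAP-HA replicates 1 or 2, without plastic replicates 1 or 3, and with any nonzero TPM passing the filter. CCDC80 was left different, at a log2 difference of -0.94, and the guanine nucleotide exchange factor ARHGEF17 lay further away at -1.29.

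**Figure D1:**
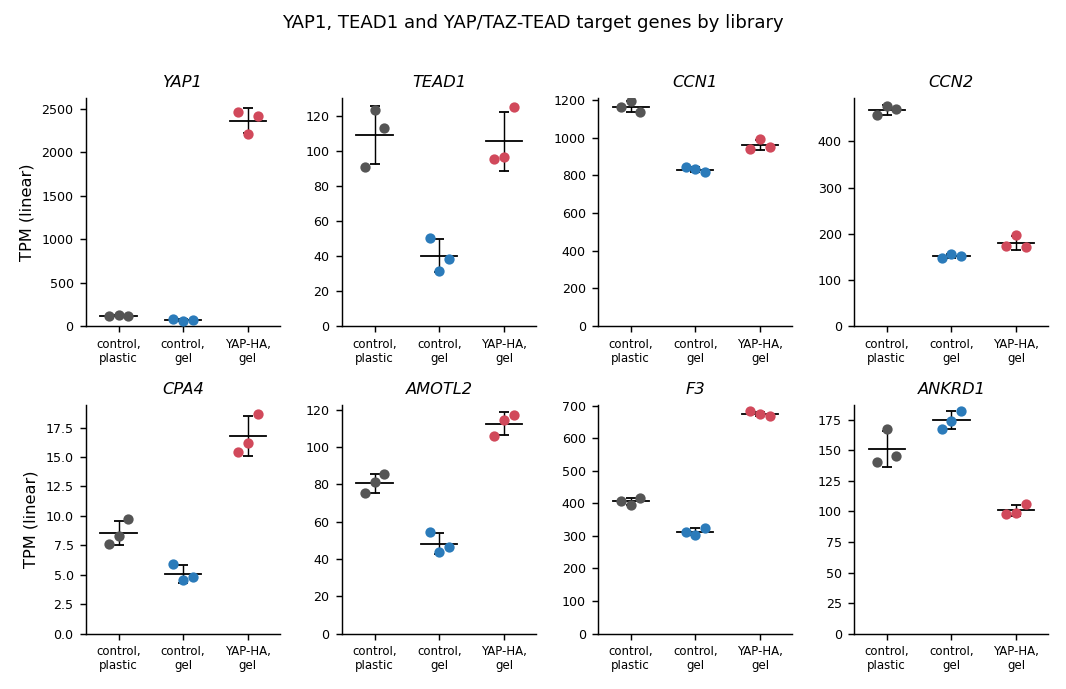
TPM (linear vertical axis from 0) of YAP1, TEAD1 and 6 YAP/TAZ-TEAD target genes on plastic, on control gel and with YAP-HA on gel; dots are libraries, lines are means and bars are SD, n = 3. TEAD1 returns to the plastic level, CPA4, AMOTL2 and F3 pass it, and CCN2 stays close to the control gel.

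The most extreme decreases were interferon-stimulated genes, the antiviral genes that interferon receptors switch on through the STAT and IRF factors. Of 43 tested of 46 listed, 42 were lower with YAP-HA on gel than on plastic and 1, IFIT5, passed no test, where 20.7% of all genes were lower. The 42 include genes under 1 TPM in every YAP-HA library, such as IFI27, OAS1 and OAS2. These could pass the filter only through plastic, so their direction was fixed in advance. The list's median log2 difference was -1.68, while for control gel it was 1.15, and 41 genes were placed as overshot. IFITM1, a membrane protein that blocks viral entry, had 218, 150.4 and 162 TPM on plastic, 755, 632 and 612 on control gel and 3.52, 1.96 and 2.9 with YAP-HA. All 3 YAP-HA libraries were thus far below the lowest plastic library and all control gel libraries far above the highest, at a log2 difference from plastic of -5.55 ± 0.17 (adjusted p = 1.02e-08). BST2, which tethers budding virus to the cell, had 29.6, 32.5 and 32.4 TPM on plastic, 208, 232 and 235 on control gel and 0.85, 1.15 and 0.86 with YAP-HA (log2 difference from plastic -4.06 ± 0.09). IFI6 went from 196 ± 8.71 TPM on plastic to 1214 ± 77.7 on control gel and 10.99 ± 1.23 with YAP-HA, and IFI27 from 25.4 ± 3.94 to 168 ± 14.7 and 0.177 ± 0.167. The choice of these 4 genes required that YAP-HA and plastic libraries not overlap. In each of them every control gel library lay above both other groups. IFITM1, IFITM2 and IFITM3 are near-identical in part, so reads could be divided among them by the quantification.

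The same pattern ran through the classes of antiviral genes. The RNA sensors DDX58 and IFIH1 were lower than on plastic, at log2 differences of -1.89 and -1.63, and the nucleic acid effectors OAS1, OAS2 and MX1 at -3.76, -2.85 and -3.43. ISG15, the ubiquitin-like modifier, stood at 144, 136 and 150.5 TPM on plastic, 582, 694 and 651 on control gel and 27.6, 32.0 and 28.3 with YAP-HA. Its groups were fully separate, in the order control gel, plastic, YAP-HA. The transcription factors of the response moved less: STAT2 stood at a log2 difference from plastic of -0.59 (adjusted p = 0.000985), IRF9 at -0.66 and IRF1 at -1.28. XAF1 was listed at 0 TPM in all YAP-HA libraries and at 1.27 to 2.26 on plastic. It passed the filter only through plastic, so the filter itself required plastic to be higher. The same holds for every gene under 1 TPM in all YAP-HA libraries, such as IFI27, OAS1 and OAS2. IFNE, which encodes interferon epsilon, was brought back, with 2.77 ± 0.509 TPM on plastic, 13.1 ± 0.787 on control gel and 3.07 ± 0.4 with YAP-HA. CD74, the chaperone of MHC class II, overshot from 69.1 TPM on control gel to 1.06 ± 0.307, below the 7.44 ± 0.8 of plastic.

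Cytokine, chemokine and NF-kB target genes were lower without exception among those tested, 20 of 31 listed. Their median log2 difference was -1.24 against plastic, and 0.56 for control gel. CXCL8, the neutrophil chemokine, stood at 63.2, 68.3 and 66.9 TPM on plastic, 295, 387 and 382 on control gel and 13.0, 15.5 and 13.7 with YAP-HA. Control gel libraries were the highest and YAP-HA libraries the lowest, with no overlap, at a log2 difference of -2.16 ± 0.10 from plastic (adjusted p = 2.37e-07). The chemokine CCL5 overshot in the same way, from 28.7 ± 0.78 TPM on control gel to 1.71 ± 0.276 against 9.48 ± 1.08 on plastic. IL6, a central inflammatory cytokine, and ICAM1, a leukocyte adhesion receptor, were lower than on plastic, at log2 differences of -1.90 and -1.67. CCL2, the monocyte chemokine, was lower on both gels, at log2 differences of -0.67 on control gel and -1.53 with YAP-HA. The NF-kB subunits moved less, with NFKB1 at a log2 difference of -0.50, NFKB2 at -0.34 and RELB at -0.84, and the inhibitor NFKBIA was lower at -1.26.

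Complement genes include some that RPE cells make themselves. Of 11 tested of 16 listed, 7 were lower than on plastic and 4 passed no test, with a median of -0.92 against 0.60 for control gel. The initiating protease C1S had 27.96, 30.4 and 27.7 TPM on plastic, 67.0, 57.7 and 60.5 on control gel and 6.02, 5.31 and 5.1 with YAP-HA, a complete separation of the groups (log2 difference from plastic -2.20 ± 0.08). Its partner C1R, the central component C3 and the inhibitor of C1, SERPING1, were lower at log2 differences of -2.32, -1.75 and -1.73. The membrane regulators CD46, CD55 and CD59 and the terminal component C5 were the 4 that passed no test, at log2 differences of -0.21, 0.02, -0.10 and -0.08. LGALS9, which encodes galectin-9, fell by 3.04 on the log2 scale.

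**Figure D2:**
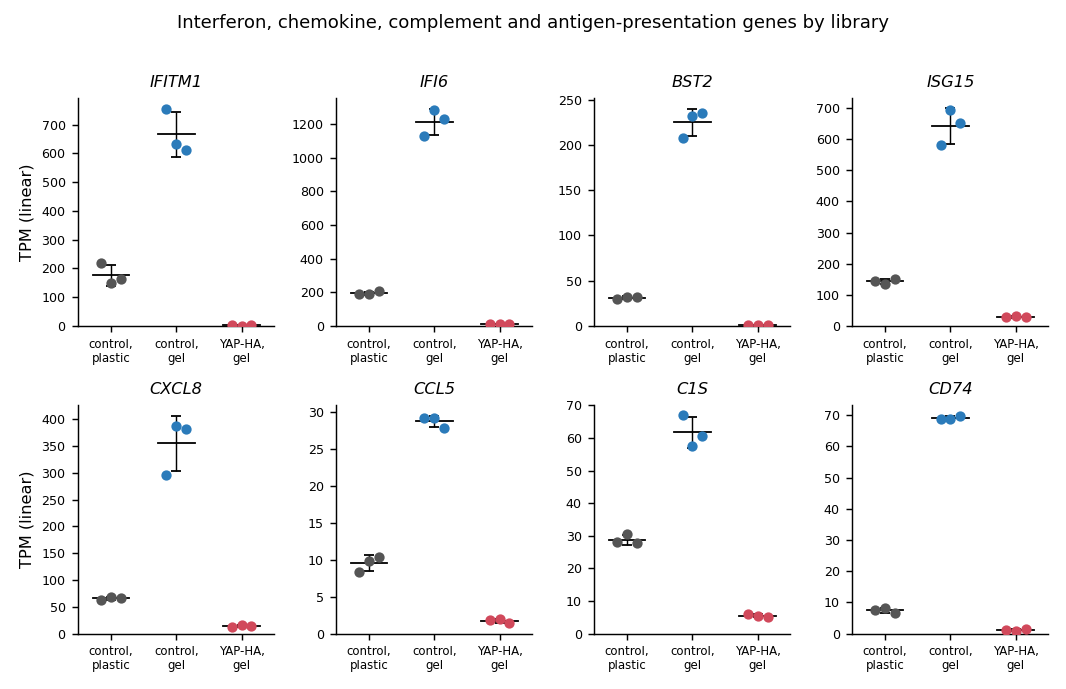
TPM (linear vertical axis from 0) of 4 interferon-stimulated genes (IFITM1, IFI6, BST2, ISG15), 2 chemokines (CXCL8, CCL5), C1S and CD74 in the 3 groups; dots are libraries, lines are means and bars are SD, n = 3. In each gene control gel is highest and YAP-HA on gel lowest, with plastic between them.

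Contractile actin genes and targets of SRF, the factor that couples actin assembly to transcription, were below plastic with YAP-HA. Of 23 tested of 25 listed, 21 were lower and none higher, with a median of -0.64 beside -0.49 for control gel. TAGLN (chromosome 11, 117199294 to 117207465), an actin cross-linker, had 1249, 1241 and 1277 TPM on plastic, 390.4, 394 and 381 on control gel and 290.3, 310.2 and 260.4 with YAP-HA. Both gel groups were far below plastic and every YAP-HA library was below every control gel library. The log2 difference of TAGLN was -2.13 ± 0.06 from plastic (adjusted p = 8.53e-09) and -0.44 from control gel (adjusted p = 0.000283). TPM1, a tropomyosin, had 1343, 1446 and 1374 TPM on plastic, 1065, 1013 and 1043 on control gel and 487, 501 and 513 with YAP-HA, and MYL9, the regulatory myosin light chain, went from 226 ± 21.0 to 110.1 ± 3.71 and 59.0 ± 5.05. In both genes the control gel was below plastic and YAP-HA below the control gel. The cytoskeletal actins ACTB and ACTG1, which share much of their sequence, were lower than on plastic, at log2 differences of -0.64 and -0.62, and SRF itself at -0.58 (adjusted p = 0.00045). CNN1, a smooth muscle calponin, and FHL1 passed no test against plastic, at a log2 difference of -0.31 (95% confidence interval -0.63 to 0.01) and 0.09 (-0.10 to 0.27), where control gel had differed by -1.36 and -0.82.

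Integrins and focal adhesion genes, which anchor that actin to matrix, were lower at 19 of 24 tested of 27 listed and higher at 1, with a median of -0.65 beside -0.46 for control gel. ITGA5, the alpha subunit of the fibronectin receptor, stood at 104, 85.3 and 90.1 TPM on plastic, 122, 109 and 117 on control gel and 27.0, 29.5 and 24.9 with YAP-HA. Control gel was slightly above plastic and YAP-HA far below both, at a log2 difference of -1.74 ± 0.09 from plastic (adjusted p = 3.45e-07). The vitronectin receptor subunits ITGAV and ITGB3 were lower at log2 differences of -1.49 and -1.92, against -0.96 and -0.62 on control gel, and the shared subunit ITGB1 at -0.88. The one member that was higher was ITGA6, a laminin receptor subunit, with 94.6 ± 6.72 TPM against 56.5 ± 4.64 on plastic (log2 difference 0.73, adjusted p = 0.000103). Among the adaptors, TNS1, BCAR1 and FERMT2 were lower at log2 differences of -1.57, -0.81 and -0.70. ITGB8, which fell on control gel by 1.52 on the log2 scale, differed from plastic by 0.26 with YAP-HA and passed no test.

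Fibrillar matrix and crosslinking genes were lower at 14 of 18 tested of 29 listed and higher at 2, with a median of -0.71 beside -0.47 for control gel. COL1A1 (chromosome 17, 50184101 to 50201631), the main chain of type I collagen, had 58.8, 57.5 and 67.0 TPM on plastic, 28.8, 19.4 and 19.4 on control gel and 1.97, 3.19 and 3.76 with YAP-HA. The YAP-HA libraries were below every control gel library and these below every plastic library, at a log2 difference of -3.99 ± 0.19 from plastic (adjusted p = 1.8e-07). FN1, fibronectin, behaved otherwise on control gel: its TPM was 861, 836 and 887 on plastic, 939, 920.2 and 862 on control gel and 215, 203 and 211 with YAP-HA. Here plastic and control gel overlapped while every YAP-HA library was far below them (log2 difference -2.03 ± 0.05 from plastic). Fibrillin FBN1, SPARC and the collagen-crosslinking oxidase LOX were lower than on plastic, at log2 differences of -1.61, -1.46 and -0.86, and THBS1, an activator of latent TGF-beta, was left different at -1.47. ELN, elastin, and COL12A1 were the 2 above plastic, at log2 differences of 0.87 and 0.36, after falling by 1.12 and 1.05 on the control gel, and the call of COL12A1 was lost without YAP-HA replicate 2 or plastic replicate 3.

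Basement membrane genes, the kind of matrix on which RPE sits, were lower at 17 of 19 tested of 22 listed and higher at none, with a median of -0.65 beside -0.28 for control gel. The type IV collagen chain COL4A1 went from 234 ± 12.1 TPM on plastic to 94.0 ± 5.6 on control gel and 87.8 ± 1.52 with YAP-HA. Among laminin chains LAMB3 showed the widest change of side, with log2 differences from plastic of 1.54 on control gel and -0.99 with YAP-HA. Perlecan, HSPG2, was lower at a log2 difference of -1.03. EFEMP1, a fibulin-like protein whose mutation causes an inherited macular dystrophy, was lower at a log2 difference of -1.57 ± 0.05 (adjusted p = 1.45e-08). LAMA5 and LAMB2 passed no test, at log2 differences of -0.26 and -0.12.

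Of the matrix proteases and their inhibitors, 11 of 18 tested of 22 listed were lower and 1 higher, with a median of -0.42 beside -0.12 for control gel. MMP2 (chromosome 16, 55478830 to 55506691), the gelatinase of RPE and fibroblasts, had 27.6, 27.2 and 27.3 TPM on plastic, 35.1, 28.1 and 30.5 on control gel and 1.36, 1.48 and 1.23 with YAP-HA. The 3 YAP-HA libraries lay far below both control groups, which passed no test against each other, and the log2 difference from plastic was -3.59 ± 0.09 (adjusted p = 3.83e-09). Its activator MMP14 and the plasminogen activator PLAU were lower at log2 differences of -1.36 and -1.23. The member that was higher was ADAMTS1, a versican-cleaving protease, with 82.9 ± 2.21 TPM against 36.4 ± 1.83 on plastic and 22.4 ± 1.58 on control gel. TIMP2, an inhibitor of MMP2, fell on control gel by 0.99 on the log2 scale. With YAP-HA it passed no test against plastic (95% confidence interval of the log2 difference 0.02 to 0.34). Every YAP-HA library of TIMP2 nevertheless lay above every plastic library. It passed the test with only the plastic and YAP-HA libraries in the fit, and without control gel replicate 1. FAP, a membrane protease of activated fibroblasts, was lower at a log2 difference of -2.84 ± 0.10.

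**Figure D3:**
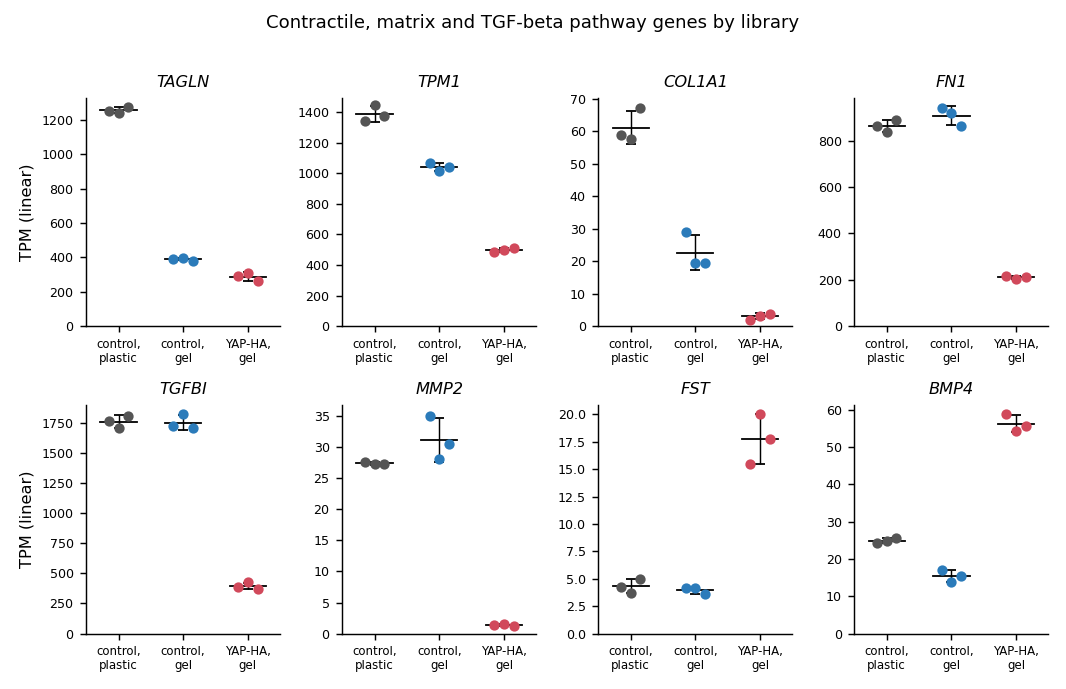
TPM (linear vertical axis from 0) of the contractile genes TAGLN and TPM1, the matrix genes COL1A1, FN1 and TGFBI, the protease MMP2, and FST and BMP4 in the 3 groups; dots are libraries, lines are means and bars are SD, n = 3. The first 6 are lowest with YAP-HA on gel, whereas FST and BMP4 are highest there.

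TGF-beta drives RPE cells toward a mesenchymal state through the SMAD factors, and BMP signalling often opposes it. Of the 21 listed genes of this group 20 were tested, 13 were lower with YAP-HA on gel than on plastic and 2 higher, with a median of -0.72 beside -0.05 for control gel. Of ligands and their carriers, TGFB1 and TGFB3 were lower at log2 differences of -0.79 and -0.65, the latent TGF-beta binding proteins LTBP1, LTBP2 and LTBP3 at -1.01, -1.82 and -1.39, and the activin subunit INHBA at -1.82. The receptor TGFBR1 was lower at a log2 difference of -1.02 and the signal transducer SMAD3 at -0.46, while SMAD2 differed by -0.03 (95% confidence interval -0.22 to 0.17), and the call of SMAD3 was lost under 5 settings. Of the response genes, TGFBI, a matrix protein, had 1768, 1704 and 1809 TPM on plastic, 1727, 1823 and 1706 on control gel and 389, 425 and 373 with YAP-HA, and PMEPA1, a feedback inhibitor, went from 117 ± 6.25 to 74.8 ± 6.57 and 16.2 ± 1.73. The YAP-HA libraries of both genes were below all others. The 2 genes above plastic were FST, follistatin, which binds activin, and the ligand BMP4. FST had 4.27, 3.73 and 4.98 TPM on plastic, 4.13, 4.16 and 3.6 on control gel and 15.5, 20.0 and 17.7 with YAP-HA, at a log2 difference of 1.81 ± 0.12 from plastic (adjusted p = 2.55e-06), and BMP4 went from 24.9 ± 0.677 to 15.4 ± 1.57 and 56.2 ± 2.38.

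The ID genes, which BMP signalling induces, returned to or close to the plastic level. ID1, an inhibitor of basic helix-loop-helix factors, had 38.0, 33.0 and 43.7 TPM on plastic, 141, 161 and 161 on control gel and 35.1, 38.6 and 30.4 with YAP-HA. Control gel stood far above both other groups, and YAP-HA had a log2 difference from plastic of -0.14 (95% confidence interval -0.39 to 0.12). ID2 was brought back to -0.04 from 1.59 on control gel, and ID3 overshot slightly, at log2 differences of -0.24 after 1.42, a call lost under 11 of the settings tried. FSTL1, a secreted relative of SPARC, was brought back from a log2 difference of -1.95 to -0.23, a placement lost without the first control gel library, when it passed the test against plastic.

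Among the listed RPE identity genes, more were lower than higher against plastic, where 20.7% of all genes were lower and 14.8% higher. Of 15 tested of 23 listed RPE identity and visual cycle genes, 8 were lower than on plastic, 1 higher and 6 passed no test, with a median of -0.28 beside -0.15 for control gel. The lower count was 5 without the first YAP-HA library, 3 without the second and 4 without the second plastic library. The retinoid carrier RLBP1 went from 4.25 ± 0.39 TPM on plastic to 2.92 ± 0.746 on control gel and 1.34 ± 0.682 with YAP-HA. The chaperone CRYAB was lower at a log2 difference of -0.97 and the neurotrophic factor SERPINF1 at -0.44, whereas EZR, the organiser of apical microvilli, was higher at 0.49 (adjusted p = 9.43e-05). Among the transcription factors, OTX2 was lower at a log2 difference of -0.29, MITF at -0.28 after -1.58 on control gel, and PAX6 at -0.58. The calls of OTX2 and PAX6 were lost without the second YAP-HA library, that of OTX2 also without the second plastic library, and those of MITF and SERPINF1 under 10 and 9 settings. Of 14 melanosome genes 7 were tested, 2 were higher and 2 lower, with a median of 0.15 beside -0.03 for control gel. These 4 were MLPH at a log2 difference of -0.74, GPNMB at -0.70, RAB38 at 0.58 and GPR143 at 0.46.

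Epithelial junction and keratin genes went both ways, 6 higher and 6 lower of 14 tested of 22 listed, with a median of -0.15 beside -0.42 for control gel. The tight junction claudin CLDN11 and cingulin, CGN, were higher at log2 differences of 1.01 and 0.61, and the simple epithelial keratins KRT8 and KRT18 at 0.40 and 0.41. CLDN1, with 46.9 ± 3.84 TPM on plastic, 41.4 ± 4.79 on control gel and 14.2 ± 0.753 with YAP-HA, and plakoglobin, JUP, were lower at log2 differences of -1.65 and -1.54. Of 10 tested mesenchymal genes of 13 listed, 6 were lower and none higher, with a median of -0.45 beside -0.11 for control gel. Besides FAP, these were the transcription factors SNAI1 and ZEB1 at log2 differences of -1.42 and -0.50, N-cadherin, CDH2, at -0.64, PDGFRB at -0.68 and vimentin, VIM, at -0.25, with ZEB1 losing its call under 9 settings and VIM under 1.

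Cell cycle genes rose above the plastic level. Of 39 listed and tested, 35 were higher with YAP-HA on gel than on plastic, against 14.8% of all genes, and none was lower, with a median of 0.44 beside -0.26 for control gel. RRM2, a subunit of the enzyme that makes deoxynucleotides, had 157, 169 and 162 TPM on plastic, 158, 152 and 145 on control gel and 265, 274 and 311 with YAP-HA. All YAP-HA libraries were above all others, at a log2 difference of 0.80 ± 0.07 from plastic (adjusted p = 1.49e-05). CDK1, the mitotic kinase, went from 83.7 ± 8.44 TPM on plastic to 84.7 ± 6.48 on control gel and 144 ± 7.58 with YAP-HA. The replicative helicase subunits MCM2 to MCM7 were higher at log2 differences of 0.37 to 0.59, the mitotic genes AURKA, CCNB1 and TPX2 at 0.63, 0.57 and 0.54, and the regulator E2F1 at 0.58. MKI67, the proliferation marker that fell on control gel by 1.06 on the log2 scale, differed from plastic by 0.14 (95% confidence interval -0.07 to 0.36) and passed no test. CCNE1, CCNE2 and MYBL2 were the other members that passed none.

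Of 17 tested CDK inhibitor and p53 target genes of 19 listed, 11 passed no test against plastic, 4 were lower and 2 higher, with a median of -0.14 beside -0.02 for control gel, and under median scaling 7 were lower. CDKN1A, the p21 inhibitor and a member that control gel had raised by 0.47 on the log2 scale, differed from plastic by -0.12 (95% confidence interval -0.24 to 0.00), and CDKN2B, the p15 inhibitor that TGF-beta induces, was lower at -1.04. In the BCL-2 family 2 of 12 tested genes of 14 listed were lower and none higher, with a median of -0.12 beside 0.14 for control gel, and of these BMF, a pro-apoptotic sensor, fell by 1.29 on the log2 scale. The other, BCL2L1 at a log2 difference of -0.19, lost its call when single libraries were left out.

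Sterol and fatty acid synthesis genes, the targets of the SREBP factors, were higher at 21 of 30 tested of 31 listed and lower at 1, SREBF1, whose call was lost without YAP-HA replicate 1 or plastic replicate 1, with a median of 0.56 beside 0.07 for control gel (-0.02 without mitochondrially encoded genes). HMGCS1, an early enzyme of the mevalonate pathway, had 197, 205 and 199 TPM on plastic, 244, 201 and 228 on control gel and 379, 372 and 418 with YAP-HA. Every YAP-HA library exceeded every other library, at a log2 difference of 0.95 ± 0.08 from plastic (adjusted p = 8.23e-06). The later enzymes IDI1, FDPS and SQLE were higher at log2 differences of 0.87, 0.82 and 0.77, ACAT2, a thiolase at the head of the pathway, at 1.06, and fatty acid synthase, FASN, at 0.79. The factor SREBF2 passed no test, at a log2 difference of 0.06.

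Of the genes of the amino acid response directed by ATF4, 28 tested of 29 listed, 16 passed no test, 10 were lower and 2 higher, with a median of -0.06 beside -0.33 for control gel. The serine synthesis enzymes PHGDH, PSAT1 and PSPH, lowered on control gel by 0.94, 0.96 and 0.65 on the log2 scale, differed from plastic by -0.08, 0.05 and 0.16 and passed no test there. DDIT4, an inhibitor of mTORC1, was lower at a log2 difference of -1.31 (adjusted p = 1.67e-07). Glycolysis and hypoxia genes were lower at 14 of 30 tested of 31 listed and higher at 2, with a median of -0.20 beside -0.21 for control gel, and the lower count was 9 without the first YAP-HA library. The glucose transporter SLC2A1 and the hypoxia-induced carbonic anhydrase CA9 were lower at log2 differences of -0.88 and -1.24, whereas ADM, adrenomedullin, was higher at 1.24.

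ANGPTL4, a secreted lipase inhibitor also on that list, showed the steepest response to the gel among overshot genes with a mean of at least 5 TPM in any group. It stood at 4.13, 4.12 and 4.74 TPM on plastic, 129.8, 141 and 139 on control gel and 1.73, 1.78 and 2.28 with YAP-HA. All control gel libraries were far above plastic and all YAP-HA libraries below it, at 4.69 and -0.87 on the log2 scale (adjusted p = 2.04e-09 and 8.17e-05). SERPINB2, an inhibitor of plasminogen activators, rose on control gel and was partly back, with 41.7, 49.1 and 48.4 TPM on plastic, 512, 454 and 532 on control gel and 65.8, 63.4 and 66.0 with YAP-HA. Its YAP-HA libraries were close above those on plastic, at a log2 difference of 0.48 (adjusted p = 0.00102). IGFBP5, which binds insulin-like growth factors, was the steepest of the partly back genes of that level that fell, from 70.5 ± 6.67 TPM on plastic to 5.25 ± 1.16 on control gel and 10.1 ± 0.835 with YAP-HA. Of 6 tested IGF-binding protein and receptor genes of 9 listed, 5 were lower than on plastic, with a median of -0.78 beside -0.17 for control gel, among them IGFBP6, IGFBP7 and the receptor IGF1R at log2 differences of -0.92, -0.65 and -1.30.

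NRF2 targets, which detoxify and manage iron and thiols, were raised as a list on control gel, with a median of 0.62, and stood at -0.05 with YAP-HA, 5 of 20 tested of 24 listed being higher and 8 lower than on plastic. HMOX1, the heme-degrading oxygenase, overshot from 124 ± 8.04 TPM on control gel to 14.1 ± 1.21, against 28.9 ± 2.2 on plastic. The ferritin chains FTH1 and FTL overshot as well, at log2 differences of -0.75 and -0.45 after 1.10 and 0.72 on control gel. TXN, thioredoxin, and SRXN1 were partly back, at log2 differences of 0.46 and 0.36, and OSGIN1 differed from plastic by -0.01 after 1.02.

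For the nuclear genes of oxidative phosphorylation and the cytosolic ribosomal proteins the list medians were slightly above 0 on both gels, while many members passed no test against plastic. Of 41 oxidative phosphorylation genes, all tested, 17 were higher with YAP-HA, none lower and 24 passed no test, with a median of 0.20 beside 0.35 for control gel, and the higher count was 10, with 1 lower, without the second YAP-HA library. ATP5F1B, a catalytic subunit of ATP synthase, was higher at a log2 difference of 0.39 and SDHD of complex II at 0.46. Of 44 ribosomal protein genes 26 were higher, none lower and 18 passed no test, with a median of 0.24 beside 0.28, and this count was 14 without the second YAP-HA library and 17 without the second plastic library. The mitochondrially encoded transcripts lay near plastic, with log2 differences from -0.30 for MT-CO2 to 0.32 for MT-ND3, and the calls of MT-CO1, MT-CO2, MT-CO3, MT-ND2 and MT-ND3 were lost when a single library was left out or the values were rescaled.

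Immediate early genes were lower at 8 and higher at 4 of 22 tested of 25 listed, with a median of -0.05 beside 0.22 for control gel, and the lower count was 5 without the first YAP-HA library and 4 without replicate 3 on plastic. JUNB, an AP-1 subunit, stood at 65.1, 56.1 and 56.4 TPM on plastic, 86.1, 87.8 and 84.2 on control gel and 11.3, 13.1 and 9.46 with YAP-HA, so that all YAP-HA libraries were the lowest (log2 difference -2.30 ± 0.10 from plastic). The stress-induced gene IER3 was lower at a log2 difference of -1.72, the phosphatase DUSP5 higher at 0.61, and EGR1 and FOSL1 passed no test, at -0.05 and 0.09. Of 5 tested metallothioneins of 10 listed 3 were lower and 1 higher, with a median of -0.31 beside -0.22 for control gel, but they share long stretches of sequence and MT1M and MT1X lost their calls under other settings.

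After YAP1, the steepest protein-coding increase on no list was that of GNGT2, a G protein gamma subunit, at 8.71 ± 0.336 TPM against 1.97 ± 0.389 on plastic. CTSC (chromosome 11, 88293592 to 88337736), the lysosomal protease that activates serine proteases of granules, had 273, 280.4 and 269.9 TPM on plastic, 252, 264 and 279.9 on control gel and 773, 823 and 799 with YAP-HA. Plastic and control gel overlapped and YAP-HA stood far above, at a log2 difference of 1.54 ± 0.05 (adjusted p = 2.44e-08). TM4SF1, a tetraspanin-like membrane protein, was higher at a log2 difference of 1.42, the retinol-binding protein RBP7 at 1.25, the hair keratin KRT33B at 1.35, and HSPA8, the constitutive heat shock cognate, at 1.12 after 0.99 on control gel. Of the steep decreases outside the lists, the transcription repressor MSC went from 29.2 ± 1.07 to 2.53 ± 0.251 TPM, the nucleotide receptor P2RY6 from 18.8 ± 0.771 to 1.65 ± 0.245 and the growth factor PDGFB from 5.48 ± 0.308 to 0.393 ± 0.101. MSC and P2RY6 passed no test between plastic and control gel, at log2 differences of -0.18 and -0.07. The actin-associated genes SYNPO and LMCD1 and NREP were lower at log2 differences of -2.51, -2.01 and -2.23, and all 3 lay further from plastic than the control gel did. RHOJ, a small GTPase, and ADAM12, a membrane protease, were left different, at log2 differences of -1.78 and -1.59 with YAP-HA and -1.67 and -1.66 on control gel. IL13RA2, a decoy receptor for IL-13, was brought back, from 27.4 ± 3.31 TPM on control gel to 6.77 ± 0.658 against 6.39 ± 0.72 on plastic.

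The largest increases by log2 difference without regard to biotype were, after YAP1, mostly small or unnamed RNAs of uncertain quantification in poly-A libraries. SNORA57 was listed at 0, 0 and 8.34 TPM on plastic and at 8.95, 18.3 and 35.7 with YAP-HA, and RN7SL3, a signal recognition particle RNA, at 2.21, 5.42 and 1.13 and 8.54, 12.5 and 46.1. AC125611.3 and RN7SL1 were higher at log2 differences of 3.54 and 2.22, calls that were lost under other settings, and SFTA1P, a pseudogene, at 2.30.

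**Figure D4:**
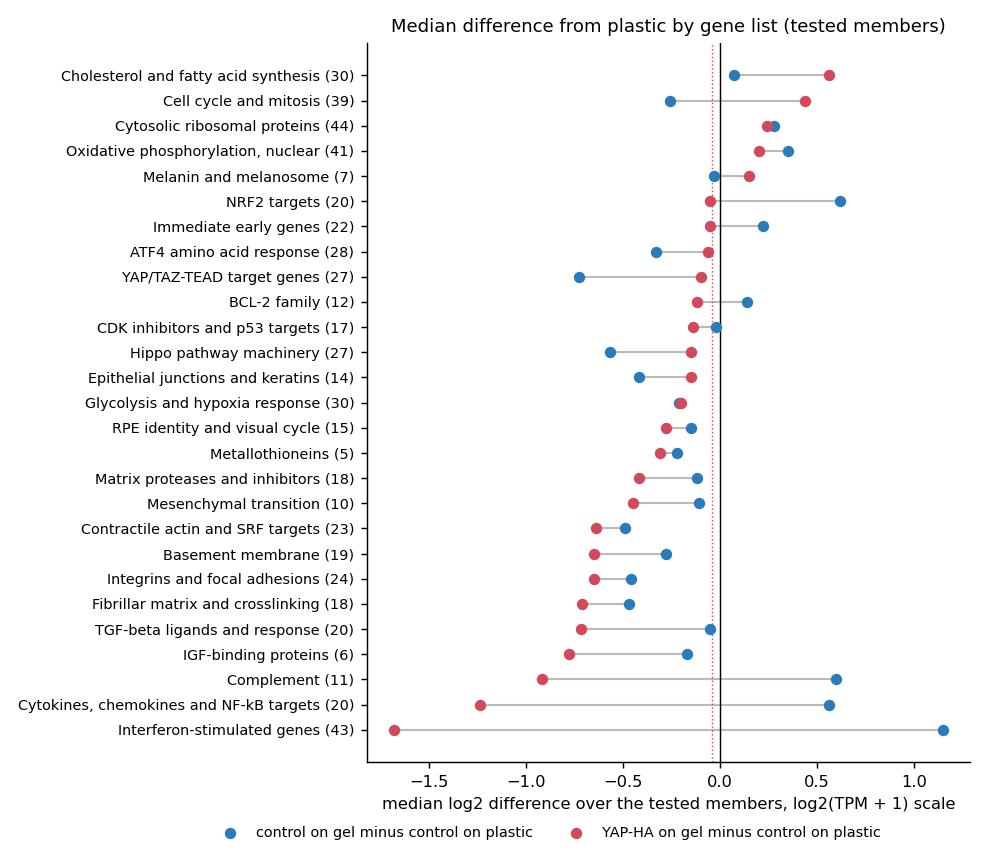
Median log2 difference from plastic (horizontal axis, log2 scale) over the tested genes of each list, for control gel and for YAP-HA on gel, joined by a line; the dotted line is the median of all genes tested with YAP-HA on gel. Interferon-stimulated, cytokine and complement genes lie above 0 on control gel and below it with YAP-HA, cell cycle genes the reverse, and contractile, adhesion and matrix genes are below 0 in both.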

How the data were processed

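Bulk RNA-seq was made from poly-A RNA (TruSeq Stranded mRNA) of ARPE-19 cells, and RNA of sufficient integrity was selected, per the labels. The authors deposited a table of TPM values per gene. The sample notes list RSEM, STAR 2.7.3a and 2.7.10b, and GRCh38 beside mouse builds for the whole series, with no role for each. The TPM columns sum to 96.5 to 97.1% of 1000000, and TPM keeps no read depth. All columns were mapped to samples (0 left over) by the replicate names in the labels, which give no batch or date.

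Genes with at least 1 TPM in at least 3 of the 6 plastic and YAP-HA gel libraries were kept, and log2(TPM + 1) of all 9 libraries was fitted in 1 model with limma 3.58.1 (trend on) in R 4.3.3, for 3 contrasts, with Benjamini-Hochberg adjustment over the 14131 genes and a threshold of 0.05. With 3 libraries against 3 an exact permutation test of a single gene cannot go below 0.1, so none was used. The fit was tested on simulated data. Summaries used Python 3.11.15, numpy 2.4.6 and pandas 2.3.3. Promoters and coordinates came from RefSeq tables of GRCh38.p14.

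The members, the 31 gene lists and the tests were chosen with earlier results of these data known. Named genes were YAP1, WWTR1, CCN1, CCN2 and ANKRD1, the 10 genes that rose and the 10 that fell most among those whose libraries did not overlap (adjusted p under 0.05, mean of at least 5 TPM), the 5 largest of each class at that level, and in each list up to 4 genes that passed and 2 highly expressed genes that did not. Because that rule returned many unnamed transcripts, the largest changes of RefSeq protein-coding genes and some further list members were added after their values were seen. Alternatives changed the pseudocount, the filter, the scaling, the trend and robust options, the interval behind brought back, the libraries in the fit and the replicate block.

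Results for some genes are not reported here.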

Additional observations from a re-analysis of the deposited data

How the results depend on the processing

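The comparison of YAP-HA on gel with plastic gave 3905 to 5663 genes when each library was left out in turn (1568 to 2360 higher, 2237 to 3303 lower), and control gel against plastic gave 5861 to 7822. Requiring an absolute log2 difference of at least 1 left 459 genes. Of the classes, brought back ran from 2035 to 2944, overshot from 585 to 944 and left different from 1163 to 1584 with a library left out. Partly back moved by more than 1.5 times, from 196 (without the first YAP-HA library), 215 (without the second) and 282 (without YAP-HA replicate 3) to 901 (without the first control gel library), with 269 without control gel replicate 3 and 278 and 274 without plastic replicates 2 and 3. Further away ran from 164 (without control gel replicate 3) and 199 (without the second) to 305. The causes were not tested.

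Same-numbered libraries did not deviate together (correlations of deviations between plastic and YAP-HA gel of 0.014, -0.12 and 0.01), so the numbers were not taken as pairs. With a replicate block the comparison of YAP-HA on gel with plastic called 4545 genes (1886 higher, 2659 lower), control gel against plastic 6823 and YAP-HA against control on gel 6487, and the classes held 2481 genes brought back, 348 partly back, 701 overshot, 1403 left different and 250 further away. Median scaling gave 1963 higher and 3231 lower and shifted the median of all genes by under 0.1, and neither this scaling nor leaving out mitochondrially encoded genes, an alternative chosen after seeing the data, turned the median of any list for YAP-HA against plastic. Without mitochondrially encoded genes the median of sterol and fatty acid synthesis genes on control gel turned from 0.07 to -0.02. No named gene reversed under any alternative run, and named genes that lost their call against plastic under an alternative are noted as such in the report. Among list counts, p53 target and CDK inhibitor genes had 7 lower under median scaling where the report gives 4, and RPE identity genes had 4 lower with a filter at 5 TPM where it gives 8. With no counts behind the values, differences among genes near 1 TPM cannot be weighed by depth.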
